A study of Mus musculus with 6 samples.

Results

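The iron and heme handling genes described here are 10 genes chosen by name for their known place in the macrophage's iron cycle: *Cd163*, *Lrp1*, *Slc48a1*, *Hmox1*, *Blvrb*, *Ftl1*, *Fth1*, *Tfrc*, *Slc11a1* and *Slc40a1*. All 10 were found among the 49315 genes counted, and all 10 were among the 16134 genes with enough reads to be tested. RNA was sequenced from liver F4/80-positive cells, isolated with magnetic beads and made up largely of Kupffer cells, which are macrophages resident in this organ, of 3 WT and 3 Lpcat3 KOMac samples. Every mouse carried loxP-flanked alleles of *Lpcat3* (Lpcat3 fl/fl), which encodes an enzyme that places polyunsaturated fatty acids in phospholipids. The Lpcat3 KOMac mice also had 1 copy of the Cre recombinase gene inserted at the lysozyme M locus (*Lyz2*), which is active in macrophages, monocytes and neutrophils, so that the deletion is one of the myeloid lineage and not of Kupffer cells alone. The WT mice were littermates without Cre. All mice were on a C57BL/6N background, were put on a high-fat diet (HFD) as young adults and ate it for 16 weeks with 60% fat. No other treatment is named for the sequenced mice. The paper used males and females and does not give the sex of these mice. The labels do not say whether a library came from 1 animal, and each library is called a mouse below. The p-values then measure the spread between these samples.

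Macrophages of the liver and spleen clear worn red cells and free hemoglobin from the blood. Heme from this cargo is moved out of the phagolysosome and opened by heme oxygenase, which yields biliverdin, carbon monoxide and iron. The iron is either stored in ferritin, a shell of heavy and light chains, or leaves the cell through ferroportin, whose removal from the membrane is triggered by the hepatic hormone hepcidin. Much of this handling is set after transcription, by iron regulatory proteins that bind hairpins called iron-responsive elements (IREs) in the untranslated regions (UTRs) of mRNAs. Binding at a 5′ UTR blocks translation, and binding at the 3′ UTR of the transferrin receptor mRNA protects it from decay. A transcript level therefore need not follow the protein level for the genes with an IRE in the 5′ UTR. For the transferrin receptor, binding acts on the transcript level itself.

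The hairpins are shown because they set apart the members whose RNA is read through this second layer of control. Sites were searched on the sense strand of 1 GENCODE M21 transcript per gene (GRCm38) as a C, 5 bases, the loop CAGTGN, and 5 bases that pair with the first 5 by Watson-Crick or G-T pairs. Below, each site is written 5′ to 3′ as 30 bases of the transcript strand, and the capitals mark the bulged C and the 6-base loop. The sites lie at chr19:9982732-9982761 (plus strand) for *Fth1*, chr7:45459778-45459807 (minus strand) for *Ftl1* and chr1:45925464-45925493 (minus strand) for *Slc40a1*, all in the 5′ UTR. The 4 sites in the 3′ UTR of *Tfrc* lie on the plus strand at chr16:32631219-32631248, chr16:32631598-32631627, chr16:32631663-32631692 and chr16:32631710-32631739.
Fth1, 5′ UTR: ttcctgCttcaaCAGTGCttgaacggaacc
Ftl1, 5′ UTR: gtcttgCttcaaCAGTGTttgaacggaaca
Slc40a1, 5′ UTR: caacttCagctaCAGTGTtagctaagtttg
Tfrc, 3′ UTR, site 1: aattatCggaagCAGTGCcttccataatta
Tfrc, 3′ UTR, site 2: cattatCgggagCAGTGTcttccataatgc
Tfrc, 3′ UTR, site 3: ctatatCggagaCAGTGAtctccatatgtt
Tfrc, 3′ UTR, site 4: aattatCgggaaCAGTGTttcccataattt

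These letters occurred in 22 of 20405 annotated 5′ UTRs (0.108%) and in 108 of 20554 3′ UTRs (0.525%). Among 3′ UTRs of a length like that of *Tfrc*, the share was 1.18%. A match describes the letters and does not show that the site is bound. The other 6 members had no match, which says only that these letters are not in the UTRs searched. The ferritin hairpins share their 5-base stem and differ from that of *Slc40a1* in the stem letters, whereas the 4 *Tfrc* sites carry stems of their own. The counts measure RNA only, so that what these hairpins did to protein in these mice was not measured.

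The libraries held between 44954224 and 71392812 counts, and the members took between 1.46% and 2.16% of them. The least abundant member, *Tfrc*, still had at least 1545 counts in every library, so that counting error was small beside the spread between mice. *Lpcat3* itself stood at 85.0, 66.2 and 61.2 CPM (counts scaled to a common library total, with TMM normalization for composition) in WT mice 1, 2 and 3. The values of Lpcat3 KOMac mice 1, 2 and 3 were 19.5, 33.3 and 19.4 CPM. The genotypes did not overlap, in the direction the labels give. The log2 fold change of *Lpcat3* was -1.56 (unadjusted p = 0.0012 in edgeR). After adjustment over all genes edgeR did not call it, whereas DESeq2 did (adjusted p = 0.0028). *Lyz2*, the gene that carries the Cre insertion, was also lower in every Lpcat3 KOMac mouse, at -1.42 on the log2 scale (standard error, SE, 0.30). DESeq2 called *Lyz2* as well (adjusted p = 0.0474), and edgeR did not. The 6 Kupffer cell markers summed to between 18864 and 34015 CPM, with *Clec4f*, *Cd5l* and *Adgre1* high in every library. The libraries also held hepatocyte RNA in unequal amounts: 6 hepatocyte markers summed to 19064 CPM in WT mouse 1 and 12244 CPM in Lpcat3 KOMac mouse 2, but to between 1703 and 4440 CPM in the other 4. These 2 hepatocyte-rich libraries, 1 of each genotype, stand apart from the rest. Other markers were low: summed levels lay between 806 and 1081 CPM for sinusoidal endothelial cells, 55.4 and 202 CPM for stellate cells, 19.7 and 95.5 CPM for neutrophils and monocytes, 2.94 and 5.07 CPM for lymphocytes, and 67.1 and 139 CPM for proliferation, with genotypes overlapping in each sum. Of these markers, *Kdr* of endothelial cells (log2 fold change 0.79, unadjusted p = 0.0287 in edgeR) and *S100a8* of neutrophils (0.99, unadjusted p = 0.0353, without overlap) were higher in Lpcat3 KOMac mice before adjustment. The level of *S100a8* was very low, from 0.72 to 0.87 CPM in WT and from 0.95 to 2.19 CPM in Lpcat3 KOMac mice. Most of the neutrophil and monocyte sum came from *Ccr2*, at 17.5 to 92.5 CPM. The 7 erythroid markers summed to 71.8, 66.4 and 24.8 CPM in WT and to 73.2, 73.8 and 75.9 CPM in Lpcat3 KOMac mice. The sums lay just apart, but every single erythroid marker overlapped between genotypes, and *Alas2* alone gave 35.6 of the 71.8 CPM in WT mouse 1. None of the 6 erythroid markers tested had an unadjusted p under 0.05 by edgeR or limma-voom, whereas DESeq2 gave *Slc4a1* an unadjusted p of 0.0110. The part of red cell RNA in the values of the members was not tested. In such bulk RNA, fewer cells of a type and less RNA per cell cannot be told apart.

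Across the 6 mice the 10 members spanned a wide range of levels. The length used is that of all annotated exons of a gene together, 9000 bases for *Slc40a1* and 1751 for *Hmox1*. The order and ranks per kilobase depend on this length, and which transcripts were present was not determined. Per kilobase of exon, the ferritin light chain *Ftl1* and the heavy chain *Fth1* averaged 3343 and 3016 CPM, the ranks 8 and 9 of all genes. *Hmox1* (785 CPM per kilobase, rank 48) and *Slc40a1* (599, rank 63) followed. *Cd163* averaged 216, *Slc11a1* 176 and *Lrp1* 104 CPM per kilobase. *Blvrb* and *Slc48a1* were lower at 85.4 and 74.6, and *Tfrc*, the receptor for iron-loaded transferrin, was lowest at 5.81 CPM per kilobase (rank 6598).

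Not every neighbour in this order was distinct. *Fth1* exceeded *Hmox1* between 3.50- and 4.19-fold within each of the 6 libraries, and *Slc48a1* exceeded *Tfrc* between 10.9- and 18.8-fold. *Slc40a1* was above *Cd163* in 6 of 6 libraries and *Slc11a1* above *Lrp1* in 6 of 6. *Hmox1* was above *Slc40a1* in 6 of 6 libraries, but by as little as 1.01-fold in 1 of them. That order rests on the length used. In CPM not divided by length *Slc40a1* was the higher, with means of 5625 against 1345 in WT and 5154 against 1405 in Lpcat3 KOMac mice. The neighbours *Cd163* and *Slc11a1* changed places between mice, with *Cd163* the higher in 4 of 6 libraries, as did *Lrp1* and *Blvrb* (4 of 6). *Ftl1* was above *Fth1* in 5 of 6 libraries, and *Blvrb* above *Slc48a1* in 5 of 6.

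**Figure D1:**
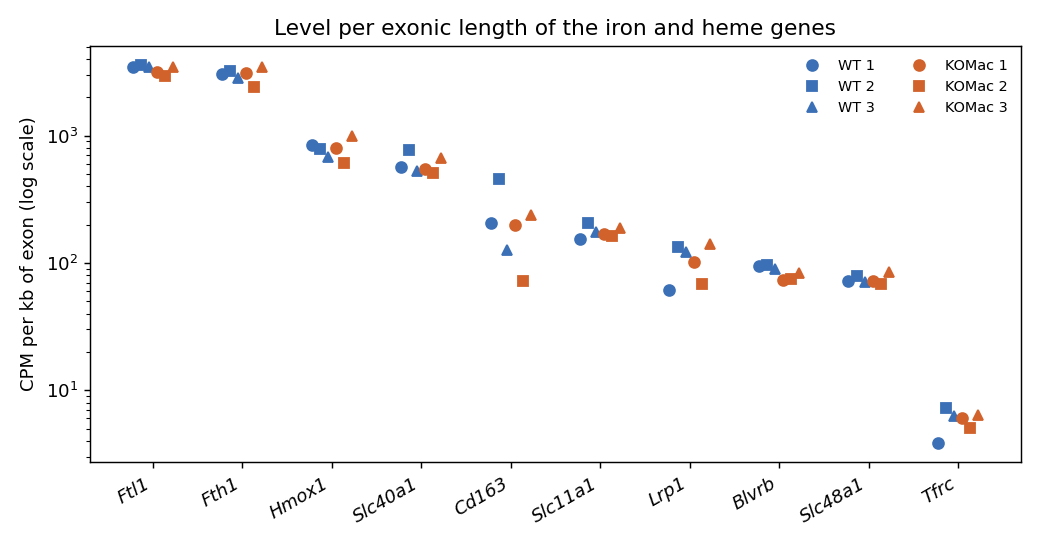
Level of each member in CPM per kilobase of exon, on a log axis, with 1 point per mouse and the 2 genotypes in separate colours. The ferritin chains lie highest and *Tfrc* lowest, with mean levels of 3343 and 5.81 CPM per kilobase.

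The comparison of genotypes asks whether loss of *Lpcat3* in myeloid cells went with a change in this gene program under HFD. In the quasi-likelihood test of edgeR, adjusted by the Benjamini-Hochberg method, 0 of the 10 members were called at an adjusted p under 0.05. Of the 16134 genes tested 0% were called, and the deleted gene *Lpcat3* itself was not. At an unadjusted p under 0.05, 1 member (*Blvrb*) was lower in Lpcat3 KOMac mice, where 2.64% of all genes passed in either direction and 1.57% in that direction. Over all genes these were 254 lower and 172 higher, a split that became 39 lower and 279 higher with total counts as the only scaling. DESeq2 and limma-voom also gave 1 member at an unadjusted p under 0.05 and 0 after adjustment, while DESeq2 called 0.111% of the 13510 genes to which it gave an adjusted p. *Blvrb* was also the only member whose genotypes did not overlap, a pattern seen in 7.49% of all genes in either direction and in 5.2% with the lower values in Lpcat3 KOMac mice. With 10 members, a single gene is near these backgrounds and is no result about the list. The log2 fold changes, Lpcat3 KOMac against WT, were negative for 7 members and positive for 3, with a median of -0.04, beside -0.04 for all genes tested.

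**Figure D2:**
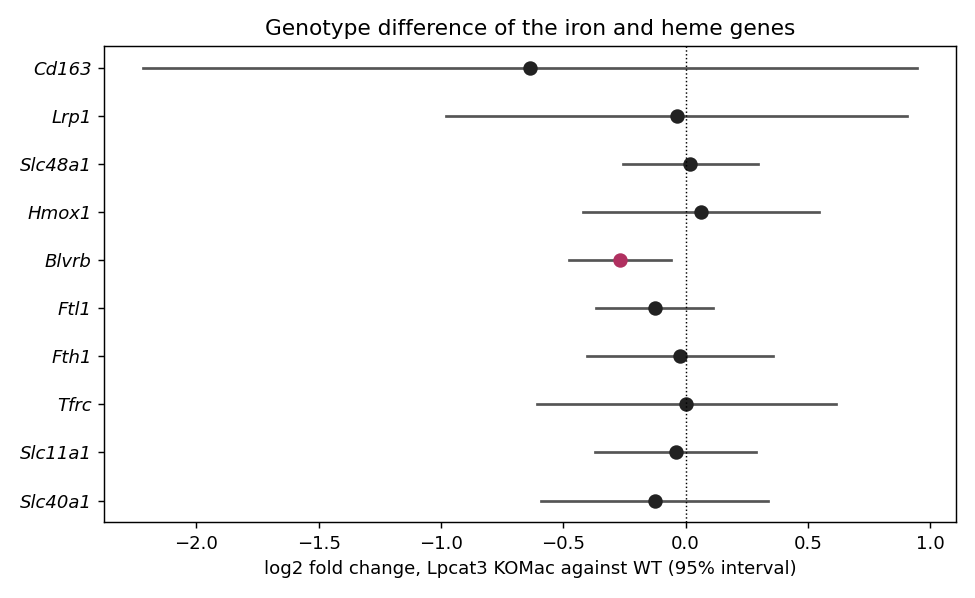
Log2 fold change of each member, Lpcat3 KOMac against WT (n = 3 and 3), from the edgeR fit, with bars for the 95% confidence interval. The interval of *Blvrb* runs from -0.48 to -0.06 and that of *Cd163* from -2.22 to 0.95, and only that of *Blvrb* leaves out 0.

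Uptake comes first. *Cd163* (ENSMUSG00000008845, chr6:124304656-124330527, plus strand) encodes the scavenger receptor for complexes of hemoglobin and haptoglobin, and is a marker of tissue macrophages. The 3 WT mice, in the order 1 to 3 used throughout, had 1132, 2493 and 684 CPM, and the 3 Lpcat3 KOMac mice had 1080, 396 and 1296 CPM. WT mouse 2 was highest and Lpcat3 KOMac mouse 2 lowest, and the other 4 libraries of both genotypes overlapped. The means were 1437 ± 942 CPM for WT and 924 ± 470 CPM for Lpcat3 KOMac cells (SD, n = 3 each). This gave a log2 fold change of -0.64 (standard error 0.63, 95% confidence interval -2.22 to 0.95), and the two-sided exact permutation test of 3 mice against 3 gave p = 0.5. *Cd163* had the largest standard error of the 10 members, and its log2 fold change depended on single libraries. It was 0.025 without WT mouse 2, -0.26 without Lpcat3 KOMac mouse 2 and -0.97 without WT mouse 3.

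*Cd163* was the most variable member, with 6.29-fold between its highest and lowest mouse. Its spread within genotypes exceeded that of 95.7% of genes of a like level. Of the 6 Kupffer cell markers, the macrophage receptors *Marco* and *Timd4* were also widely spread, with *Marco* between 148 CPM in Lpcat3 KOMac mouse 2 and 3168 CPM in WT mouse 2, and *Timd4* between 123 and 938 CPM in these same libraries. The other 4 were not, and ranged 1.42-fold (*Cd5l*), 1.54-fold (*Adgre1*), 1.58-fold (*Vsig4*) and 1.89-fold (*Clec4f*) between mice. The part of cell composition in the spread of *Cd163* was not tested.

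*Lrp1* (ENSMUSG00000040249, chr10:127538161-127621148, minus strand) encodes a large endocytic receptor with many ligands, among them the complex of heme and hemopexin. Its levels were 1082, 2362 and 2176 CPM in the WT mice and 1790, 1218 and 2475 CPM in the Lpcat3 KOMac mice. The low values were those of the 2 hepatocyte-rich libraries, WT mouse 1 and Lpcat3 KOMac mouse 2, and the genotypes overlapped. Between genotypes *Lrp1* differed by a log2 fold change of -0.04 (SE 0.38, 95% confidence interval -0.98 to 0.91). The interval is wide and still allows close to a doubling in either direction.

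*Slc48a1* (ENSMUSG00000081534, chr15:97784355-97792692, plus strand) encodes the transporter that moves heme from the phagolysosome into the cytosol. It was among the steadiest members, at 194, 213 and 191 CPM in WT and 195, 183 and 229 CPM in Lpcat3 KOMac mice. The Lpcat3 KOMac group enclosed the WT range, and the mice differed at most 1.25-fold. Its log2 fold change was 0.02 (standard error 0.11, 95% confidence interval -0.26 to 0.30). The gene shares 29 exonic bases with *Hdac7* on the other strand, which had at most 930 counts against at least 8730 for *Slc48a1*.

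Heme breakdown follows uptake. *Hmox1* (ENSMUSG00000005413, chr8:75093621-75100589, plus strand) encodes the inducible heme oxygenase. Its levels were 1476, 1372 and 1187 CPM in WT and 1401, 1074 and 1739 CPM in Lpcat3 KOMac mice. The Lpcat3 KOMac group held both the highest value (mouse 3) and the lowest (the hepatocyte-rich mouse 2) and enclosed the WT range. The means were 1345 ± 146 CPM (SD, n = 3) and 1405 ± 333 CPM (SD, n = 3), and the log2 fold change was 0.06 (standard error 0.20, 95% confidence interval -0.42 to 0.55). The data thus allow a difference in *Hmox1* RNA in either direction within that interval, which is not a limit of detection.

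*Blvrb* (ENSMUSG00000040466, chr7:27447978-27466144, plus strand) encodes biliverdin reductase B, which reduces biliverdin isomers and flavins. It stood at 261, 267 and 251 CPM in WT mice and at 206, 208 and 233 CPM in Lpcat3 KOMac mice. Every Lpcat3 KOMac mouse was below every WT mouse, and the spread within each genotype was small, since only 13.6% of genes of a like level had a smaller one. The Lpcat3 KOMac mean was 216 ± 15.4 CPM (SD, n = 3), or 83.0% of the WT mean of 260 ± 7.86 CPM (SD, n = 3). The log2 fold change was -0.27 (standard error 0.08, 95% confidence interval -0.48 to -0.06) with an unadjusted p of 0.0199 by edgeR, 0.0164 by DESeq2 and 0.0196 by limma-voom. None held after adjustment over all genes (edgeR's adjusted p = 1), and the exact permutation test gave p = 0.1, the smallest that 3 mice against 3 can give.

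The unadjusted p of *Blvrb* was under 0.05 in 11 of 17 alternative fits, in which it ran from 0.0164 to 0.119 (edgeR, DESeq2 and limma-voom) and the log2 fold change from -0.30 to -0.17. It was over 0.05 with total counts as the only scaling, at a log2 fold change of -0.17 (unadjusted p = 0.119 in edgeR). It was also over 0.05 without both hepatocyte-rich libraries, at -0.24 (unadjusted p = 0.0724 in edgeR). Without Lpcat3 KOMac mouse 1 the log2 fold change was -0.20 (unadjusted p = 0.119), without Lpcat3 KOMac mouse 2 it was -0.23 (unadjusted p = 0.0852), and without WT mouse 2 it was -0.25 (unadjusted p = 0.0576), all in edgeR. The 6 Kupffer cell markers had negative log2 fold changes as well, and *Clec4f* was also without overlap between genotypes, at a log2 fold change of -0.44 (unadjusted p = 0.0423 in edgeR). Against single Kupffer cell markers of the same library, the log2 difference of *Blvrb* ran from -0.11 beside *Adgre1* to 0.59 beside *Marco* and was negative for 3 of the 6. The part of cell composition in this difference was not tested.

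**Figure D3:**
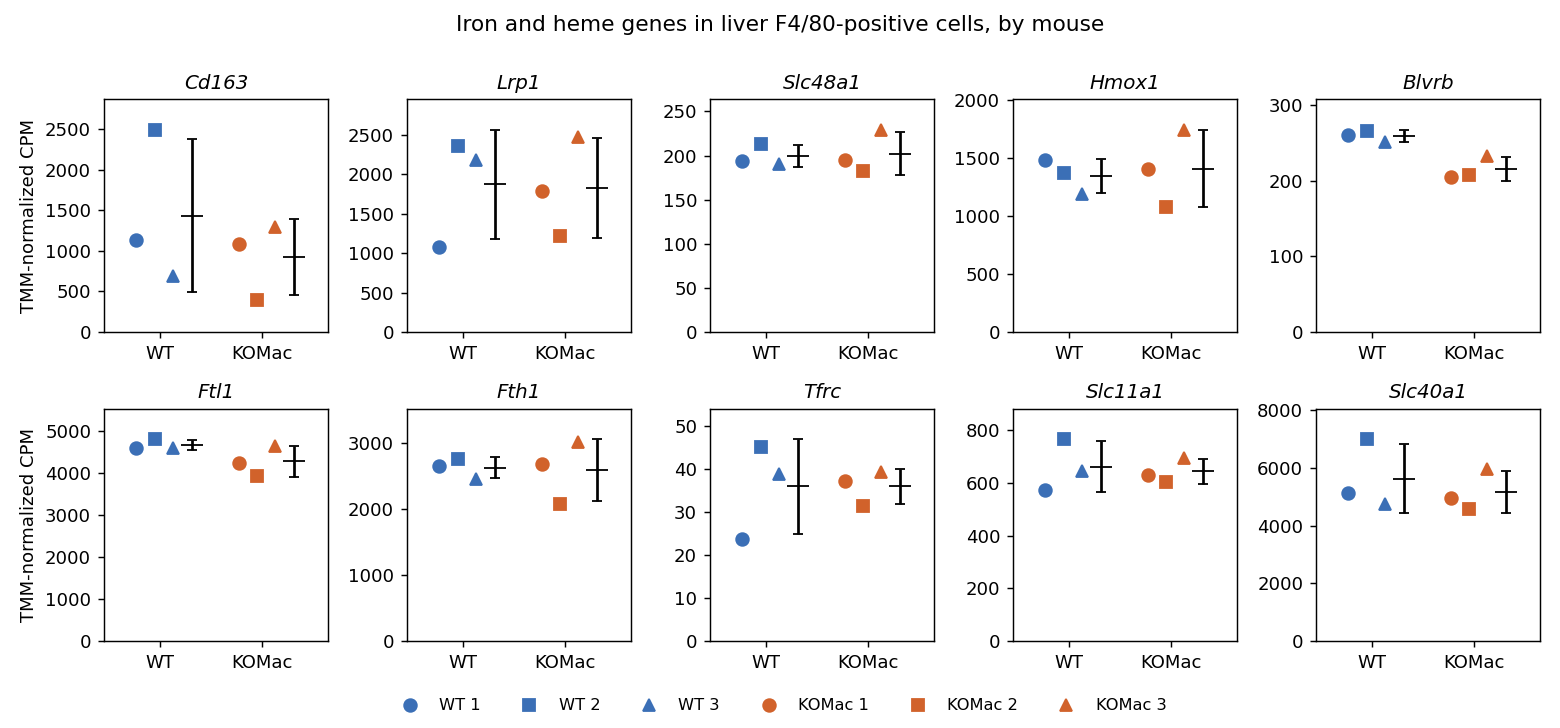
TMM-normalized CPM of the 10 members, with 1 symbol per mouse and a bar for the mean and SD of each genotype (n = 3 each). *Blvrb* is the only panel in which the 3 WT mice (251 to 267 CPM) and the 3 Lpcat3 KOMac mice (206 to 233 CPM) do not overlap.

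Iron freed from heme is stored in ferritin. *Ftl1* (ENSMUSG00000050708, chr7:45457944-45459884, minus strand), the light chain, stood at 4611, 4815 and 4599 CPM in WT mice and 4253, 3938 and 4660 CPM in Lpcat3 KOMac mice. Lpcat3 KOMac mice 1 and 2 were below all WT mice, whereas mouse 3 lay within the WT range. The log2 fold change was -0.13 (standard error 0.10, 95% confidence interval -0.36 to 0.11), with an exact permutation p of 0.3. *Ftl1* was the steadiest member, at 1.22-fold between the highest and lowest mouse.

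*Fth1* (ENSMUSG00000024661, chr19:9982703-9985092, plus strand), the heavy chain that oxidizes iron for storage, stood at 2660, 2771 and 2461 CPM in WT and 2683, 2081 and 3014 CPM in Lpcat3 KOMac mice. The extremes were again both in the Lpcat3 KOMac group, with the hepatocyte-rich mouse 2 lowest, and the log2 fold change was -0.02 (standard error 0.15, 95% confidence interval -0.40 to 0.36). Within each library, the heavy to light chain ratio per length was 0.893, 0.890 and 0.828 in WT and 0.976, 0.818 and 1.00 in Lpcat3 KOMac mice. The groups overlapped, with means of 0.870 ± 0.0367 (SD, n = 3) and 0.932 ± 0.0993 (SD, n = 3), and the log2 ratio differed by 0.09 (exact permutation test, p = 0.4). A ratio within a library does not depend on scaling between libraries, but ferritin has near-identical pseudogenes, so the levels are uncertain to that extent. The counts on annotated pseudogenes came to at most 0.00846% of *Fth1* and between 0.349% and 0.406% of *Ftl1*, and adding them left the ratio difference at 0.09. *Ftl1* also shares 355 exonic bases with *Gm10252* on the other strand, which had at most 1472 counts against at least 204198.

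*Tfrc* (ENSMUSG00000022797, chr16:32608920-32632794, plus strand), the transferrin receptor with the 4 printed 3′ UTR sites, was at 23.8, 45.2 and 38.8 CPM in WT and 37.2, 31.5 and 39.4 CPM in Lpcat3 KOMac mice. WT mouse 1, a hepatocyte-rich library, was lowest, and the 3 Lpcat3 KOMac mice fell within the WT range. Its log2 fold change was 0.00 (standard error 0.25, 95% confidence interval -0.61 to 0.61).

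The last 2 members move iron across membranes. *Slc11a1* (ENSMUSG00000026177, chr1:74375195-74386062, plus strand) encodes NRAMP1, which pumps metal ions out of the phagosome and is known for its part in resistance to intracellular microbes. It was at 572, 765 and 645 CPM in WT and 630, 602 and 696 CPM in Lpcat3 KOMac mice. The Lpcat3 KOMac values all lay inside the WT range, whose lowest value was that of the hepatocyte-rich mouse 1. *Slc11a1* differed by a log2 fold change of -0.04 (standard error 0.13, 95% confidence interval -0.37 to 0.29). The counts measure RNA only, and whether functional NRAMP1 protein was present in these mice was not measured. *Slc40a1* (ENSMUSG00000025993, chr1:45908068-45926523, minus strand) encodes ferroportin, the only known exporter of iron from cells. Its levels were 5127, 6990 and 4757 CPM in WT and 4939, 4557 and 5965 CPM in Lpcat3 KOMac mice. WT mouse 2 was highest, and the hepatocyte-rich Lpcat3 KOMac mouse 2 lay below all WT mice. The log2 fold change was -0.13 (standard error 0.19, 95% confidence interval -0.59 to 0.34), with an exact permutation p of 0.6.

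The members shared a pattern across mice that did not follow genotype. All 10 had their highest level in WT mouse 2 (6 members) or Lpcat3 KOMac mouse 3 (4 members). This pair was named after these levels were seen. The 32.2% of all genes tested that were highest in either is therefore given as a description and no test. Of the 10, 9 had their lowest level in WT mouse 1 or Lpcat3 KOMac mouse 2, the hepatocyte-rich libraries, against 43.1% of all genes. *Blvrb* was the exception, with its lowest level in Lpcat3 KOMac mouse 1. WT mouse 2 and Lpcat3 KOMac mouse 3 also had the highest summed Kupffer cell markers, at 34015 and 27224 CPM. The pattern has 1 mouse of each genotype at both ends, and the part of cell composition in it was not tested.

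**Figure D4:**
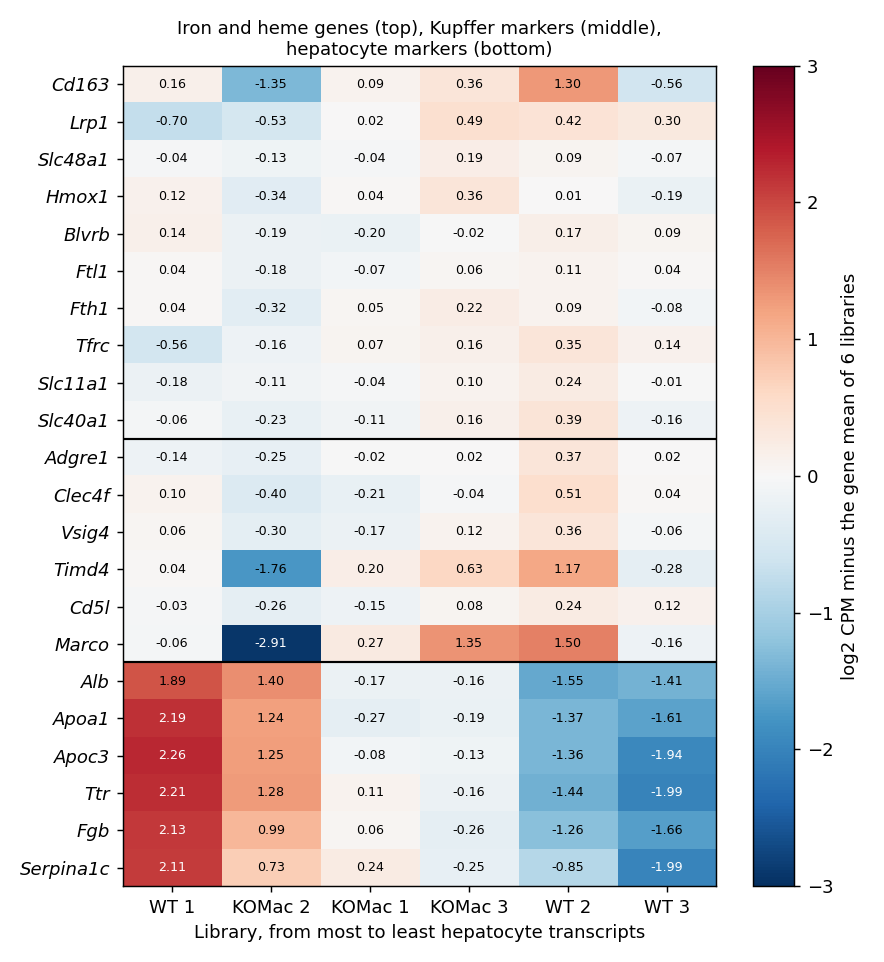
Level of each member in each mouse, as a log2 difference from that member's mean over the 6 mice. WT mouse 2 and Lpcat3 KOMac mouse 3 hold the highest value of every member, and WT mouse 1 and Lpcat3 KOMac mouse 2 the lowest of 9 of 10.

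Beyond the 10 members, 53 other genes of iron and heme metabolism were listed in 9 roles, and 52 had enough reads to be tested (mitochondrial ferritin, *Ftmt*, had 0 counts). By edgeR, 0 of the 52 passed an adjusted p of 0.05 and 1 passed unadjusted, beside 2.64% of all genes tested. The log2 fold changes were negative for 33 and positive for 19, with a median of -0.06. DESeq2 gave 0 and limma-voom 1 at an unadjusted p under 0.05. The gene was *Smad7*, an inhibitor of the BMP signal that raises hepcidin, at 48.7, 46.3 and 42.3 CPM in WT and 32.8, 40.1 and 38.6 CPM in Lpcat3 KOMac mice. All 3 Lpcat3 KOMac mice were below all WT mice (log2 fold change -0.30, standard error 0.11, unadjusted p = 0.035 in edgeR). For *Smad7* the unadjusted p was over 0.05 in DESeq2 (0.0585), and in edgeR with total counts alone (0.0864) and without most single mice. *Hfe*, a regulator of hepcidin, was the other gene without overlap, at 389, 458 and 376 CPM in WT and 341, 366 and 365 CPM in Lpcat3 KOMac mice (log2 fold change -0.19, standard error 0.10, unadjusted p = 0.120 in edgeR). Of all genes tested, 5.2% were without overlap and lower in Lpcat3 KOMac mice. Neither count exceeds its background, and neither is a result about the pathway.

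The pathway genes were read by role, with the 2 highest per length named in each. Among the heme carriers, the plasma proteins haptoglobin (*Hp*) and hemopexin (*Hpx*) are made by hepatocytes and ranged 13.2- and 10.8-fold between mice. Their log2 fold changes of 0.07 and 0.12 had standard errors of 1.10 and 1.08. In heme breakdown, the constitutive oxygenase *Hmox2* and biliverdin reductase A (*Blvra*) had log2 fold changes of -0.19 and -0.08. The neighbour *Cdip1* overlaps *Hmox2* on the other strand over 892 exonic bases, with at most 3455 counts against at least 7421. In heme synthesis the first enzyme, *Alas1*, ranged 7.97-fold between mice (log2 fold change -0.63, standard error 0.94), and the last, ferrochelatase (*Fech*), had a log2 fold change of -0.03.

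Transferrin (*Trf*) and the metal reductase *Steap4* led the uptake genes, at log2 fold changes of 0.01 and 0.07 with SEs of 0.61 and 0.87. The iron chaperone *Pcbp1* (log2 fold change -0.06, standard error 0.09) was steady, at 1.17-fold between mice. *Ncoa4*, the receptor for breakdown of ferritin (0.03, standard error 0.20), ranged 1.45-fold, and hepcidin (*Hamp*) 17.7-fold. The RNA binding proteins that read the IREs, *Aco1* and *Ireb2*, gave -0.13 (SE 0.18) and -0.03 (SE 0.09) on the log2 scale. The mitochondrial genes *Iscu* and *Slc25a28* had log2 fold changes of -0.19 and -0.04. *Nfe2l2*, a transcription factor that induces *Hmox1* and ferritin, had -0.03 (standard error 0.17), and *Spic*, a factor needed by iron-recycling macrophages, had 0.01 (standard error 0.30).

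Of the 52 pathway genes, 33 had their highest level in WT mouse 1, which held the most hepatocyte RNA, as had 4545 of all 16134 genes tested. In the pathway, 15 ranged over 5-fold between mice, 13 of these with WT mouse 1 highest. Whereas the members were mostly lowest in the hepatocyte-rich libraries, 73.1% of the pathway genes were highest there, against 40.3% of all genes. Leaving out both libraries raised the pathway genes at an unadjusted p under 0.05 in edgeR from 1 to 16, of which 15 were higher in Lpcat3 KOMac mice, and leaving out WT mouse 1 alone gave 16, all higher. All genes rose likewise, from 2.64% to 10.96% without both libraries (1391 higher, 376 lower) and to 12.3% without WT mouse 1 (1595 higher, 433 lower). With hepatocyte level as a covariate in edgeR the direction was the opposite, at 10 pathway genes, all lower, beside 10.2% of all genes (643 higher, 1000 lower). The other Lpcat3 KOMac libraries held more hepatocyte RNA (4440 and 4293 CPM) than WT mice 2 and 3 (1745 and 1703 CPM), and its part in these counts was not tested. Among the members, *Blvrb* was under that threshold without WT mouse 1, and 0 were without both libraries.

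**Figure D5:**
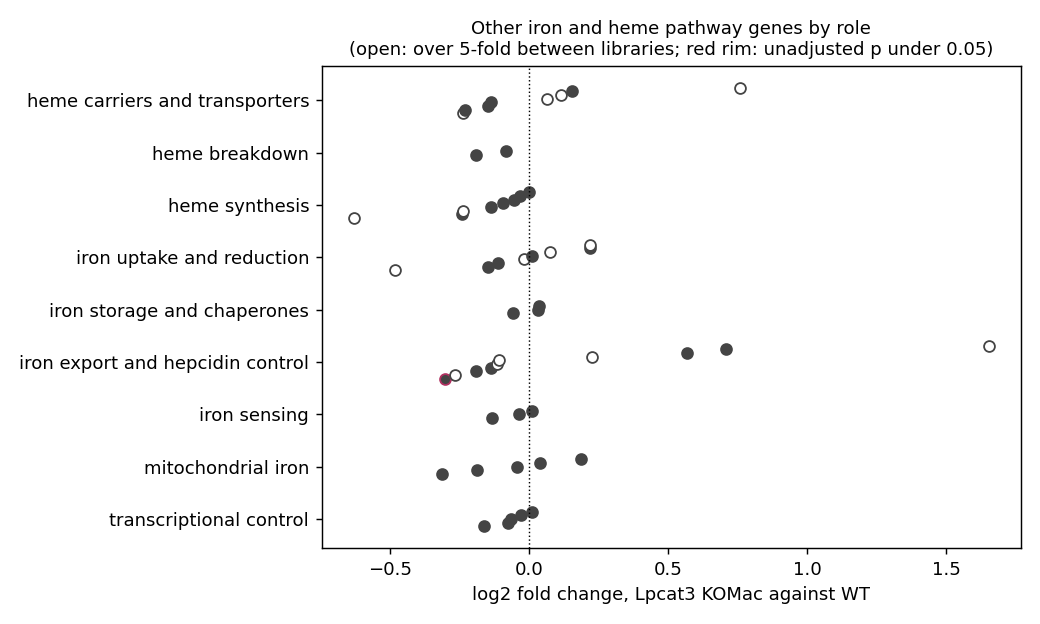
Log2 fold change, Lpcat3 KOMac against WT, of the 52 tested pathway genes by role, with 1 point per gene. The values run from -0.63 for *Alas1* to 1.65 for *Hamp2*, a hepcidin gene with as few as 1 count in a library, and only *Smad7* had an unadjusted p under 0.05.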

How the data were processed

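The authors deposited raw counts per gene and library, without normalization. The submitters' processing notes name Trimmomatic 0.36, STAR 2.5.2b, featureCounts (Subread 1.5.2) and GRCm38. The strand setting and the handling of reads with several matches are not given in the sources used here, so overlapping genes and ferritin pseudogenes are uncertain. Of the gene identifiers, 49056 of 49315 were found in GENCODE M21.

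Counts were compared with edgeR 4.0.16 (R 4.3.3): TMM scaling, the expression filter at its default (10 counts), the robust quasi-likelihood test with genotype as the only term, and Benjamini-Hochberg adjustment over 16134 genes. Standard errors (SE) are the log2 fold change over the square root of F. DESeq2 1.42.0 and limma-voom (limma 3.58.1) were alternatives, as were DESeq2's size factors or total counts alone in edgeR, a filter of 10 counts in each library or none, no robust dispersion, a hepatocyte covariate, a replicate block, the difference of mean log2 CPM (prior count 0.5), leaving out each mouse, and the 3 added after seeing the data that are given with the limits. Single values were compared with a two-sided exact permutation test (SciPy 1.17.1), whose smallest p with 3 mice against 3 is 0.1.

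On simulated counts, in 15904 genes, edgeR recovered 79 of 107 genes changed by a log2 of 1 (73.8%) and 93 of 93 changed by 2, and called 3 unchanged genes. The simulation gave every gene the same spread between mice, smaller than that of the data (common biological coefficient of variation 0.39). It held no differences in hepatocyte RNA, and the changed genes were drawn from well-counted ones. These shares therefore check the fit and do not give the power in the real data.

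Named were all 10 members, and of the other pathway genes those at an unadjusted p under 0.05, those without overlap between genotypes and the 2 of highest level per length in each role, besides ferritin pseudogenes, overlapping genes and cell markers. *Hamp2* and *Ftmt* were named after their values were seen. Members and lists were chosen with earlier results of these data known. The IRE search used 1 transcript per gene, by APPRIS rank, then support level, then transcript number. Other measurements of the study were not analysed here.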

Additional observations from a re-analysis of the deposited data

How the results depend on the processing

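No setting gave a member an adjusted p under 0.05, as far as the alternatives below were run. The members at an unadjusted p under 0.05 numbered 1, but 0 with total counts alone, with the replicate block and without both hepatocyte-rich libraries, and from 0 to 1 with single mice left out. Over all genes, DESeq2 called 15 where edgeR called 0. The genes at an unadjusted p under 0.05 numbered 426, but 1643 with hepatocyte level as a covariate, 138 with the replicate block and 1767 without both hepatocyte-rich libraries, and between 179 and 2028 with single mice left out. For the pathway genes the count of 1 became 10 with the covariate (all lower), 16 without both hepatocyte-rich libraries (15 higher), 0 with DESeq2, the replicate block or total counts alone, and between 0 and 16 with single mice left out (16 higher without WT mouse 1). The cause of these shifts was not tested. Under total counts alone, 39 of the 318 genes under 0.05 were lower and 279 higher, against 254 and 172 with TMM, and DESeq2 gave 224 lower and 257 higher. The median of the members moved by less than the spread between mice in every alternative run, but that spread (SD 0.18) was larger than the median of -0.04. The sign of the median was not stable. It was 0.011 with the covariate, 0.046 with total counts alone, and 0.00097, 0.063 and 0.065 without Lpcat3 KOMac mouse 1, Lpcat3 KOMac mouse 2 and WT mouse 2. In the other alternatives it stayed negative, down to -0.16 without WT mouse 1.

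Direction turned for 8 of the 10 members in at least 1 alternative, *Cd163* among them without WT mouse 2. With the covariate *Lrp1* became 0.25 and *Slc11a1* 0.025, with total counts alone *Lrp1* 0.042, *Fth1* 0.076 and *Slc11a1* 0.050, with an offset for transcript length *Fth1* 0.041, without both hepatocyte-rich libraries *Fth1* 0.12 and *Tfrc* -0.13, and without the low-count filter *Tfrc* -0.0025. With single mice left out, the log2 fold change ran from -0.97 to 0.025 for *Cd163*, -0.31 to 0.21 for *Lrp1*, -0.052 to 0.10 for *Slc48a1*, -0.10 to 0.24 for *Hmox1*, -0.12 to 0.13 for *Fth1*, -0.22 to 0.20 for *Tfrc*, -0.13 to 0.078 for *Slc11a1* and -0.23 to 0.060 for *Slc40a1*. *Blvrb*, *Ftl1*, *Hfe* and *Smad7* stayed negative in every alternative run.

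Whether the replicate numbers pair the mice is not known. Correlations of deviations ran from -0.57 to 0.35 between same-numbered mice and from -0.57 to 0.65 between the others. With so few pairs, and hepatocyte RNA that differed between libraries, these values cannot decide it. With the block, *Blvrb* kept -0.27 (unadjusted p = 0.0804 in edgeR). Over all genes tested, the log2 fold change rose weakly with exonic length (Spearman correlation 0.19), and the cause of this trend was not tested. With the length offset *Ftl1* became -0.062 and *Blvrb* -0.23 (unadjusted p = 0.0384 in edgeR). The length offset, the fit without both hepatocyte-rich libraries and the differences against single Kupffer cell markers were chosen after seeing the data. So was the pair of libraries in which the members were highest. With 3 mice per genotype, changes in variable genes such as *Cd163* could be missed, and not only small ones. For *Cd163* the log2 fold change had a standard error of 0.63 and a confidence interval from -2.22 to 0.95 in edgeR. After adjustment over all genes, edgeR did not call *Lpcat3* either, at a log2 fold change of -1.56.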
